A study of Mus musculus with 12 samples.

Results

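The genes followed here encode 8 transcription factors of the hepatocyte: the leucine-zipper factors C/EBP alpha, beta and delta (Cebpa, Cebpb, Cebpd), the forkhead factors Foxa1, Foxa2 and Foxa3, the cut-homeodomain factor HNF6 (Onecut1) and the homeodomain factor Prox1. All probe sets of the array whose annotated gene symbol was one of these were taken, which gave 13 of the 45037 probe sets tested, for 8 of 18193 genes. Cebpa, Foxa1, Foxa2 and Foxa3 had 1 probe set each, Cebpb, Cebpd and Onecut1 had 2 each, and Prox1 had 3. None of the 13 carried a second symbol, and none lay at the floor of 3.04 signal units on any array.

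The study followed the first hours of hepatitis caused by concanavalin A (ConA), a plant lectin that activates T cells and injures the liver. Whole liver of male Balb/c mice aged 8 to 10 weeks was hybridised to 12 Affymetrix mouse genome arrays. There were 3 arrays for the control group at 0 h and 3 each for the 1 h, 3 h and 6 h groups, whose mice had 20 mg/kg ConA by tail vein. The labels call the control mice untreated and the study's methods give them PBS. Since controls were taken at 0 h only, time of day, feeding and injection cannot be told apart from ConA. No source states that each array was 1 mouse, so the p-values measure only the spread between these samples. In whole liver, fewer cells of a type and less RNA per cell cannot be told apart.

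C/EBP alpha sustains the metabolic program of the resting hepatocyte, including gluconeogenesis and glycogen and urea metabolism. C/EBP beta and delta bind closely related sites and are induced by IL-6, IL-1 and TNF, and they drive acute-phase genes. The FOXA proteins open liver enhancers in chromatin, HNF6 acts beside them in hepatocytes and bile duct cells, and Prox1 serves both hepatocytes and lymphatic endothelium.

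Array medians ran from 13.7 to 20.4 signal units, and 17.5 to 23.2% of probe sets lay at the floor. The median log2 change of all probe sets was 0.07 at 1 h, -0.18 at 3 h and 0.04 at 6 h against control, so the 3 h arrays were dimmer as deposited, and it was -0.27 for 3 h minus 1 h and 0.24 for 6 h minus 3 h. The 7 measured hepatocyte markers, among them Alb, Apoa1 and Ttr, summed to 54021 to 59089 in the control group, 56472 to 59372 at 1 h, 52396 to 53121 at 3 h and 53121 to 57842 at 6 h. None of them was at the floor on all arrays of a group. At 3 h 1 of the 7 passed the test, the urea-cycle gene Ass1 (-3.62, adjusted p = 0.00076), where 12.9% of all genes were lower. None passed at 1 h or 6 h. The probe set that stood for Ass1 was dim, at 148 to 242 in the control group, 14.2 to 17.7 at 3 h and 93.2 to 264 at 6 h. The other markers read 2479.6 or above on every array. Whether so dim a signal follows the main Ass1 message was not tested. The test throughout was limma's moderated test in 1 fit of the 4 groups, with Benjamini-Hochberg adjustment over the 45037 probe sets and a threshold of 0.05, and fold changes are on the log2 scale with their standard error (SE).

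At 1 h, 3 of the 13 probe sets were higher than control and none lower, against 1.29% of all probe sets higher and 0.255% lower. These 3 were both Cebpb probe sets and the brighter Cebpd probe set. At an unadjusted p under 0.05, 6 were higher and 1 lower, with no share of all probe sets at that threshold to set beside them. At 3 h, 4 were higher and 1 lower, where 3.77% of all probe sets were higher and 9.83% lower. At 6 h, 8 were higher and 1 lower, where 12.0% of all were higher and 8.37% lower. The F test over all times called 10 of the 13, against 28.1% of all probe sets. The 3 it did not call were Foxa1 and both Onecut1 probe sets.

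**Figure D1:**
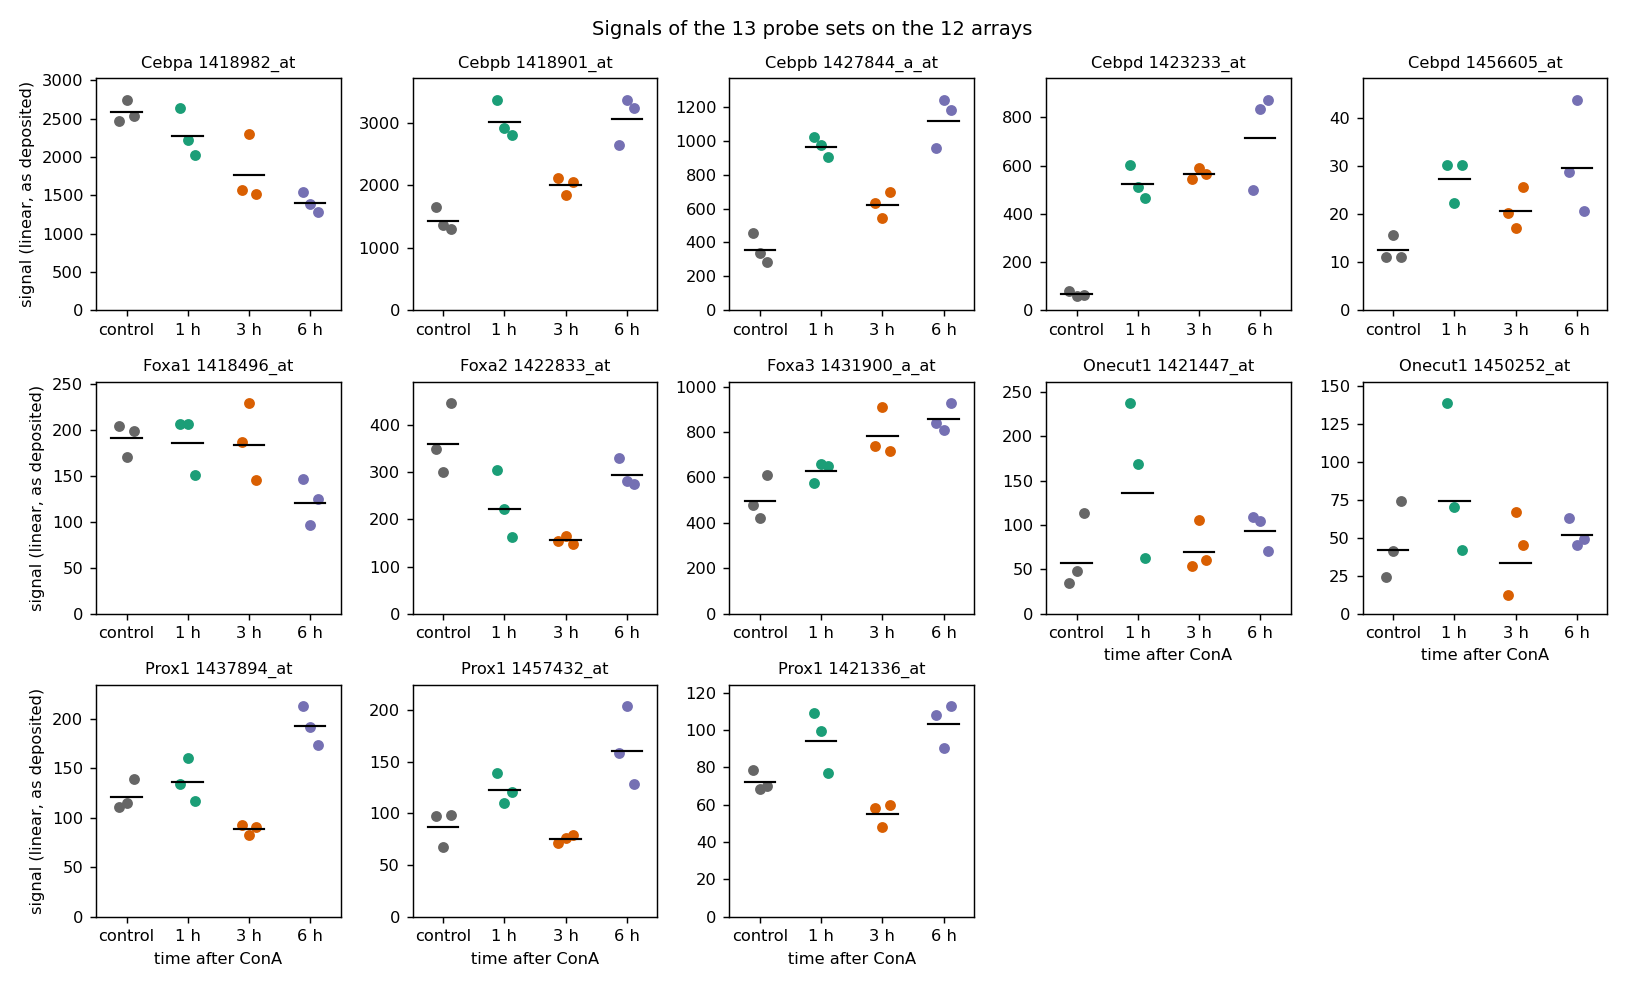
Signals of the 13 probe sets in the control group and at the 3 times after ConA. Each point is 1 array (linear signal as deposited, axes from 0, a separate scale for each panel), 3 for each group, and the bar is the geometric mean. Cebpa lay at 2475 to 2749 in the control group and at 1285 to 1539 at 6 h, while Cebpd 1423233_at lay at 61.7 to 80.1 in the control group and at 465 or above on every ConA array.

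Cebpb, the acute-phase C/EBP, rose 2.10-fold within 1 h on its brighter probe set, was lower at 3 h and was high again at 6 h. On probe set 1418901_at the control arrays read 1655, 1373 and 1309.6, the 1 h arrays 3363, 2918 and 2805, the 3 h arrays 2122, 1847 and 2059.8, and the 6 h arrays 2649, 3375 and 3237. All 9 ConA arrays lay above all 3 control arrays, and the 3 h arrays lay below those of 1 h and 6 h without overlap. The log2 change was 1.07 (SE 0.13, adjusted p = 0.0042) at 1 h, 0.48 (SE 0.13, adjusted p = 0.042) at 3 h and 1.09 (SE 0.13, adjusted p = 0.00045) at 6 h. In a fit of only the groups compared, this probe set and 1427844_a_at lost their calls at 1 h (adjusted p = 0.067 and 0.084) and at 3 h (adjusted p = 0.074 and 0.083). The 3 h call of 1418901_at was also lost with a pseudocount of 1 (adjusted p = 0.1), with the replicate block (adjusted p = 0.071), without any 1 of the 3 h arrays, or without control replicate 2 or 3, at adjusted p between 0.058 and 0.12.

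The other Cebpb probe set, 1427844_a_at, followed the same course, with r = 0.99 between the 2 over the 12 arrays. It read 458, 337 and 288 on the control arrays, with 1023, 973 and 902 on the 1 h arrays, 630.1, 543 and 696 on the 3 h arrays and 955, 1242 and 1178 on the 6 h arrays. Again no ConA array reached down to the control arrays. The log2 change was 1.45 (SE 0.18, adjusted p = 0.0043) at 1 h, 0.81 (SE 0.18, adjusted p = 0.017) at 3 h and 1.66 (SE 0.18, adjusted p = 0.00025) at 6 h. The 3 h call was lost without ConA 3 h replicate 1 or 3 or control replicate 2, at adjusted p of 0.05 to 0.063.

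The dip of Cebpb at 3 h depended on the scaling. As deposited, 1418901_at fell by 0.59 for 3 h minus 1 h (adjusted p = 0.019) and 1427844_a_at by 0.64 (adjusted p = 0.043), when 5 of the 13 probe sets were lower and none higher, against 12.8% of all lower and 2.09% higher. After quantile normalization, which sets all arrays to 1 distribution, these changes were -0.38 (adjusted p = 0.057) and -0.37 (adjusted p = 0.26), so neither passed. The call was also lost on 1418901_at without ConA 1 h replicate 1 or ConA 3 h replicate 2 or 3 (adjusted p of 0.05 to 0.065), and on 1427844_a_at without any 1 of the 6 arrays compared (0.061 to 0.13). The rise for 6 h minus 3 h was 0.61 (adjusted p = 0.013) on 1418901_at and 0.85 (adjusted p = 0.012) on 1427844_a_at as deposited, and 0.45 (adjusted p = 0.019) and 0.67 (adjusted p = 0.03) after quantile normalization. It did not pass when each array was centred on its median (adjusted p = 0.31 and 0.11), and on 1418901_at it was 0.55 (adjusted p = 0.051) without ConA 6 h replicate 2. Between 6 h and 1 h, 1418901_at differed by 0.02, with a 95% interval of -0.27 to 0.32.

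Cebpd, induced with Cebpb in the acute phase, showed the largest change among the 13 probe sets. Probe set 1423233_at read 80.1, 61.7 and 65.7 on the control arrays, with 604, 513 and 465 on the 1 h arrays, 546, 589 and 564 on the 3 h arrays and 500.1, 835 and 874 on the 6 h arrays. No ConA array overlapped the control arrays, and the 1 h arrays already reached the range of the later ones. The signal was 7.62-fold control at 1 h (log2 change 2.93, SE 0.21, adjusted p = 0.00017), 8.24-fold at 3 h (3.04, SE 0.21, adjusted p = 4e-05) and 10.4-fold at 6 h (3.38, SE 0.21, adjusted p = 1.4e-05). No further change between ConA times passed, with 6 h minus 1 h at 0.45 (95% interval -0.02 to 0.92, adjusted p = 0.2). Without the lowest 6 h array, replicate 1, this difference was 0.71 (adjusted p = 0.014), and 6 h minus 3 h was 0.59 (adjusted p = 0.032). Without ConA 6 h replicate 2 or 3, 6 h minus 1 h was 0.34 or 0.30 (adjusted p = 0.44 and 0.46). On the same terms 6 h minus 3 h was 0.22 or 0.19 (adjusted p = 0.64 and 0.66).

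The dimmer Cebpd probe set, 1456605_at, lay much nearer the floor. It read 11.2, 15.8 and 11.1 on the control arrays, with 30.2, 22.4 and 30.3 on the 1 h arrays, 20.2, 17.1 and 25.6 on the 3 h arrays and 28.8, 43.9 and 20.7 on the 6 h arrays. All ConA arrays were above all control arrays here too, yet only the 6 h change passed (1.24, SE 0.28, adjusted p = 0.013). The changes were 1.13 (SE 0.28, adjusted p = 0.11) at 1 h and 0.72 (SE 0.28, adjusted p = 0.14) at 3 h, the last of which passed after quantile normalization (0.98, adjusted p = 0.036).

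Neutrophil markers rose after ConA, but 5 of the 10 measured were not called at 1 h. The 10 summed to 108 to 156 in the control group, 869.5 to 1223 at 1 h, 1551 to 2197 at 3 h and 1707 to 2657 at 6 h. At those 3 ConA times 5, 7 and 9 of the 10 were higher and none lower. Among all genes, 1.45%, 4.76% and 14.4% were higher at those times, and 0.148%, 12.9% and 11.8% lower. Those not called at 1 h were Csf3r (1.71, adjusted p = 0.21), Ngp (0.48), Ltf (0.32), Itgam (0.20) and Camp (-0.03). Cxcr2 and Camp were at the floor on 1 and 2 control arrays, and no marker was at the floor on all 3. The abundant neutrophil genes S100a8 and S100a9 rose by 4.32 and 4.13 at 1 h and by 5.56 and 5.04 at 6 h, and the next largest 6 h changes were those of Mmp9 (2.62) and Cxcr2 (2.58). The part of infiltrating cells in the Cebpd signal was not tested.

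Cebpa, the C/EBP of the resting hepatocyte, went the opposite way and more slowly. Its probe set 1418982_at read 2475, 2749 and 2533 on the control arrays, with 2639, 2221 and 2022 on the 1 h arrays, 1568, 2298 and 1514 on the 3 h arrays and 1539, 1385 and 1285 on the 6 h arrays. The 1 h arrays overlapped the control arrays, and all 3 h and 6 h arrays were below them. At 6 h the signal was 1.85-fold lower (log2 change -0.88, SE 0.17, adjusted p = 0.0052). The 3 h change of -0.55 (SE 0.17, adjusted p = 0.062) did not pass. Without ConA 3 h replicate 2, which read 2298, it was -0.75 (adjusted p = 0.01). Without ConA 3 h replicate 1 or 3 it did not pass (adjusted p = 0.17 and 0.18). Nor did it after quantile normalization (-0.43, adjusted p = 0.11) or median centring (adjusted p = 0.29). It passed with an intensity trend (adjusted p = 0.049) and among the probe sets brighter than the median (adjusted p = 0.033). At 1 h the change was -0.18 (SE 0.17, 95% interval -0.56 to 0.20). The 6 h group was also below the 1 h group, by -0.70 (adjusted p = 0.019), when 1 of the 13 probe sets was lower and 1 higher against 9.08% and 8.02% of all. This call was lost without ConA 1 h replicate 1 or ConA 6 h replicate 2 or 3, at adjusted p of 0.055 to 0.068.

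Within each array the balance of the C/EBP messages shifted from the first hour. Levels of different probe sets cannot be compared, so only the change of their log2 difference was read, which no scaling factor of an array can alter. For Cebpb minus Cebpa the arrays lay at 0.26, -0.16 and -0.11 around the control mean, at 1.19, 1.24 and 1.32 above it at 1 h, at 1.28, 0.53 and 1.29 at 3 h, and at 1.63, 2.13 and 2.18 at 6 h. ConA 3 h replicate 2 was the lowest ConA array and still lay above every control array. The mean shift was 1.25 (2.38-fold) at 1 h, 1.03 (2.05-fold) at 3 h and 1.98 (3.94-fold) at 6 h. For Cebpd minus Cebpa it was 3.11 (8.64-fold) at 1 h, 3.60 (12.1-fold) at 3 h and 4.26 (19.2-fold) at 6 h. Each shift had a two-sided exact permutation p = 0.10, the smallest that 3 against 3 arrays allow.

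**Figure D2:**
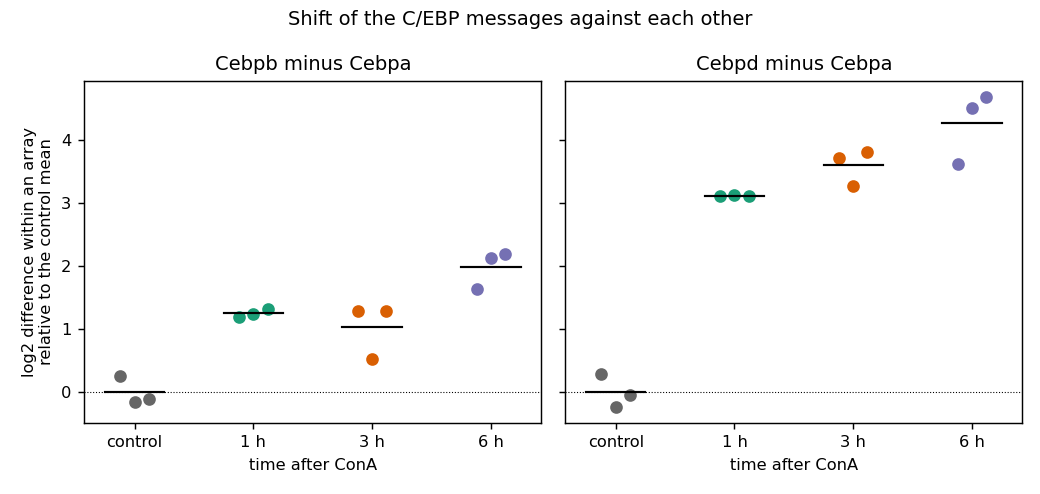
Difference of log2 signals within each array, Cebpb 1418901_at minus Cebpa 1418982_at (left) and Cebpd 1423233_at minus Cebpa 1418982_at (right), relative to the mean of the control group (dotted line). Points are arrays, 3 for each group, bars are means, and the 6 h arrays lay 1.63 to 2.18 above the control mean on the left and 3.61 to 4.68 above it on the right.

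Whether promoter letters go with the course of a gene was not tested. The promoters of Cebpb, Cebpa and Foxa3 are shown, picked with the changes of these genes known. Each is the stretch of 250 bases before the transcription start in RefSeq on build GRCm38.p6, printed 5′ to 3′ on the strand of the gene, and capitals mark TGACG (the core of the cAMP response element) and TATAAA (the TATA box) on either strand. Cebpb lies at chr2:167688665-167688914 on the + strand, Cebpa at chr7:35119043-35119292 on the + strand and Foxa3 at chr7:19023540-19023789 on the - strand.
Cebpb: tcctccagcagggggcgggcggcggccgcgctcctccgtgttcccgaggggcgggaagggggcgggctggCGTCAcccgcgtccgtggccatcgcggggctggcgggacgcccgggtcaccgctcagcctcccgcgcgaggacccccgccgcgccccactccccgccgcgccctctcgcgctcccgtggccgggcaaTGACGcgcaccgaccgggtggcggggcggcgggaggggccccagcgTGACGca
Cebpa: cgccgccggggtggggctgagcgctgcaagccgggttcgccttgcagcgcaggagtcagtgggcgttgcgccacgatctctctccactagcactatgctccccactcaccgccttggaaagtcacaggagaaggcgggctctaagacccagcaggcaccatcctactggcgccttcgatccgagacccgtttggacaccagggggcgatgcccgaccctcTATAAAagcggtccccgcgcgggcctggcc
Foxa3: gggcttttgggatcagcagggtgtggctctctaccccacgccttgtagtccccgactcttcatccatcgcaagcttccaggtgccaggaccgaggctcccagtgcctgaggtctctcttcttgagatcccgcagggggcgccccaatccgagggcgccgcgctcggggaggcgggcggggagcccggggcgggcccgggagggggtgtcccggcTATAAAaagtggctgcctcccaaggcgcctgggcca
The Cebpb stretch had 81.6% G and C and 41 CpG, against a median of 52.4% G and C over 32817 promoters of that length. It held TGACG at 3 places, at bases 180 to 176, 53 to 49 and 7 to 3 before the start, the first of which lies within an NF-kB match. It held no TATAAA. The Cebpa stretch (66.4% G and C) held TATAAA at bases 30 to 25 before the start and no TGACG, and the Foxa3 stretch (68.8%) held TATAAA at bases 36 to 31.

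Over all 32817 promoters, TGACG was found in 17.7% and TATAAA in 12.4%. Of the 8 genes, 7 were matched, with 10 transcription starts in all, and Cebpd was not. The STAT letters TTCNNNGAA (7.01% of promoters) and the C/EBP letters TTGCNNAA (9.57%) were in none of the 10 stretches. The FOXA letters TGTTTAC (3.16%) were in 1, that of Foxa1, at bases 141 to 135. The NF-kB letters, GGG and CC with 5 bases of any kind between them, present in 45.8% of promoters, matched 3 times in Cebpb, 3 times in Cebpa and 6 times in Foxa3, with overlapping matches counted. They also matched 3 times in 1 Prox1 stretch, and 1 time each in Onecut1 and in 1 Foxa2 stretch. TGACG was also in the Onecut1 stretch, and TATAAA in 1 stretch each of Foxa2 and Prox1. All motifs were searched on both strands, and a match is a string of letters and no measured site.

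The 3 FOXA genes, near relatives that bind the same sequence, were not compared with each other in a test, and their own values follow. Foxa2, which also serves bile acid and glucose metabolism, read 349, 300.0 and 448 on the control arrays, with 305, 223 and 162 on the 1 h arrays, 155, 165 and 147 on the 3 h arrays and 330.4, 281 and 275 on the 6 h arrays. All 3 h arrays were below all control and all 6 h arrays, and the 1 h and 6 h arrays overlapped the control group. The log2 change was -0.70 (SE 0.22, adjusted p = 0.24) at 1 h, -1.22 (SE 0.22, adjusted p = 0.0078) at 3 h, which is 2.32-fold lower, and -0.29 (SE 0.22, 95% interval -0.80 to 0.21) at 6 h. Foxa2 was the only 1 of the 13 probe sets called lower at 3 h.

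The recovery of Foxa2 between 3 h and 6 h was 0.92 (SE 0.22, adjusted p = 0.023), when 6 of the 13 probe sets were higher and none lower against 14.3% and 2.42% of all. It was 0.64 (adjusted p = 0.083) after quantile normalization and missed the threshold under median centring (adjusted p = 0.14), and the call was also lost without ConA 3 h replicate 1 or 3 or ConA 6 h replicate 1 or 2 (0.84 to 0.96, adjusted p of 0.059 to 0.072).

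Foxa3, the FOXA gene linked to glucose homeostasis in fasting, was higher at 3 h and 6 h. It read 477, 419 and 609 on the control arrays, with 574, 659 and 651 on the 1 h arrays, 737, 910.3 and 715 on the 3 h arrays and 841, 807 and 929 on the 6 h arrays. The 1 h arrays overlapped the control arrays and the later ones did not. The log2 change was 0.34 (SE 0.15, adjusted p = 0.43) at 1 h, 0.66 (SE 0.15, adjusted p = 0.02) at 3 h and 0.79 (SE 0.15, adjusted p = 0.0053, 1.73-fold) at 6 h. The 3 h call was lost without ConA 3 h replicate 2 (0.55) or without control replicate 1 (0.63) or 2 (0.54), at adjusted p of 0.065 to 0.066, and in a fit of only the groups compared (adjusted p = 0.095), and the 6 h call was lost under median centring (adjusted p = 0.059).

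Foxa1 read 204, 171 and 199 on the control arrays, with 206, 206 and 151 on the 1 h arrays, 187, 229.7 and 145 on the 3 h arrays and 147, 96.2 and 125 on the 6 h arrays. The 6 h arrays lay below the control arrays and the others overlapped them. The 6 h change of -0.66 (SE 0.21, adjusted p = 0.059) missed the threshold as deposited, and it was -0.79 (adjusted p = 0.031) after quantile normalization, -0.81 (adjusted p = 0.03) after median centring, and -0.80 (adjusted p = 0.046) without ConA 6 h replicate 1. At 1 h and 3 h it was -0.04 (95% interval -0.52 to 0.45) and -0.05 (-0.54 to 0.43).

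**Figure D3:**
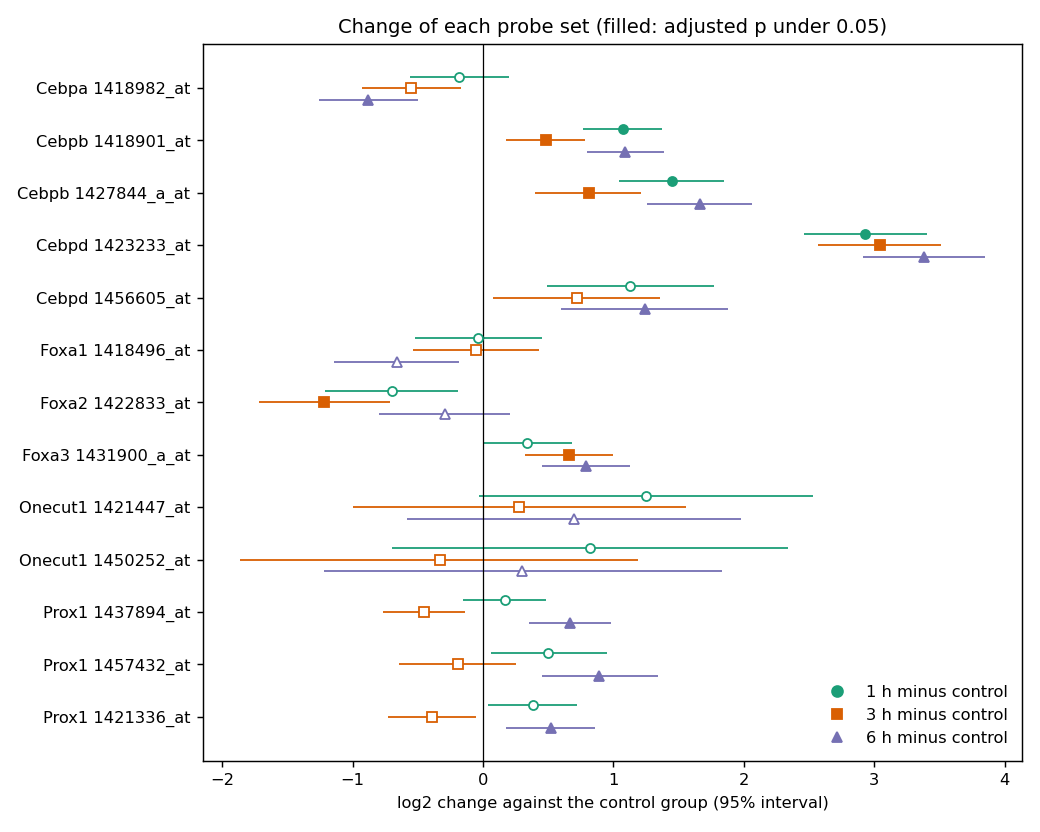
Log2 change of each of the 13 probe sets against the control group at 1 h (circles), 3 h (squares) and 6 h (triangles), with 95% intervals from the limma fit. Filled symbols passed an adjusted p of 0.05, and the lowest filled symbol is Foxa2 at 3 h (-1.22) and the highest is Cebpd 1423233_at at 6 h (3.38).

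Onecut1, the gene of HNF6, was too variable for its changes to be resolved. Probe set 1421447_at read 34.4, 48.2 and 114 on the control arrays, with 238, 169 and 63.3 on the 1 h arrays, 53.4, 106 and 60.0 on the 3 h arrays and 109, 105 and 71.2 on the 6 h arrays. Every ConA group overlapped the control group. The log2 change was 1.25 at 1 h (95% interval -0.03 to 2.53, adjusted p = 0.44), 0.28 at 3 h (SE 0.57, adjusted p = 0.84) and 0.70 at 6 h (-0.58 to 1.98). On 1450252_at, which read 24.4 to 74.1 in the control group and 12.4 to 139 after ConA, the changes were 0.82, -0.33 and 0.30, with intervals of -0.70 to 2.34, -1.86 to 1.19 and -1.22 to 1.83. The 2 probe sets had r = 0.82 over the 12 arrays, and control replicate 3 and ConA 1 h replicate 1 were the highest of their groups on both.

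By group mean, all 3 Prox1 probe sets were lowest at 3 h and highest at 6 h, though none passed at 3 h against control. The brightest, 1437894_at, read 111, 115 and 139 on the control arrays, with 134, 160.3 and 117 on the 1 h arrays, 92.6, 82.7 and 90.3 on the 3 h arrays and 213, 192 and 174 on the 6 h arrays. The 6 h arrays stood above all others and the 3 h arrays below all others. The log2 change was 0.17 (SE 0.14, adjusted p = 0.71) at 1 h, -0.45 (SE 0.14, adjusted p = 0.064) at 3 h and 0.67 (SE 0.14, adjusted p = 0.0083, 1.59-fold) at 6 h, and the last was lost under median centring (adjusted p = 0.059). For 6 h minus 1 h it was 0.50 (adjusted p = 0.037), a call that was lost without ConA 1 h replicate 1 or 3 or ConA 6 h replicate 1 or 2 (0.39 to 0.50, adjusted p of 0.087 to 0.12).

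Prox1 1457432_at read 97.3, 67.6 and 98.6 on the control arrays, with 139, 109.9 and 121 on the 1 h arrays, 71.2, 76.6 and 79.4 on the 3 h arrays and 158, 204 and 128 on the 6 h arrays. Prox1 1421336_at read 78.5, 68.5 and 70.1 on the control arrays, with 109, 99.7 and 77.1 on the 1 h arrays, 58.5, 48.3 and 59.7 on the 3 h arrays and 108, 90.6 and 113 on the 6 h arrays. On both, the 6 h arrays were above the control arrays without overlap. The 6 h change was 0.89 (SE 0.20, adjusted p = 0.011) on the first and 0.52 (SE 0.15, adjusted p = 0.039) on the second. On 1421336_at that call was lost without ConA 6 h replicate 1 or 3 or without any 1 control array (0.45 to 0.58, adjusted p of 0.056 to 0.12), and after quantile normalization or median centring. At 3 h, 1457432_at changed by -0.19 (SE 0.20, adjusted p = 0.61) and overlapped the control arrays, and 1421336_at by -0.39 (SE 0.15, adjusted p = 0.13). For 6 h minus 1 h they changed by 0.39 and 0.14 (adjusted p = 0.24 and 0.64), with overlapping arrays on both.

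For 3 h minus 1 h the Prox1 probe sets fell by 0.62, 0.70 and 0.77 (adjusted p = 0.02, 0.045 and 0.012, in the order given above), and none of the 3 passed after quantile normalization (adjusted p = 0.44, 0.41 and 0.17). The call was also lost on 1437894_at without ConA 1 h replicate 1 or 2 or ConA 3 h replicate 2 or 3 (adjusted p of 0.053 to 0.061), and on 1457432_at without any 1 of the 6 arrays compared (0.068 to 0.14). The rise for 6 h minus 3 h was 1.12, 1.08 and 0.91 as deposited (adjusted p = 0.0016, 0.0069 and 0.0048) and 0.80, 0.76 and 0.54 after quantile normalization (adjusted p = 0.012, 0.038 and 0.049), so it passed on all 3 under both. Under median centring only 1437894_at kept it (adjusted p = 0.023, against 0.053 and 0.064 for the other two).

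The 7 markers of sinusoidal and lymphatic endothelium, cells of which the lymphatic ones carry Prox1, summed to 909 to 1780.2 in the control group, 1525 to 1794 at 1 h, 787 to 905 at 3 h and 836 to 941 at 6 h. At 6 h, 2 of the 7 were higher, the hyaluronan receptor Lyve1 of lymphatic and sinusoidal cells (1.23, adjusted p = 0.032) and the general endothelial gene Pecam1 (1.06, adjusted p = 0.0037). The 3 that were lower were Clec4g (-1.13, adjusted p = 0.017), Flt4 (-1.87, adjusted p = 0.00064) and Kdr (-2.30, adjusted p = 0.00023). Of all genes, 14.4% were higher and 11.8% lower at 6 h. Pdpn, another lymphatic marker, changed by 0.12 (adjusted p = 0.85), and no marker was at the floor on all arrays of a group. Their part in the Prox1 signal was not tested.

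Counted without a test, 5 probe sets had all 1 h arrays above all control arrays and none had them all below, where 10.2% of all probe sets lay above and 3.96% below. At 3 h, 5 lay above and 4 below, against 7.28% and 23.2% of all, and at 6 h 8 lay above and 2 below, against 19.8% and 13.9%. Between ConA times, for 3 h minus 1 h 1 lay above (4.43% of all) and 5 below (27.5%), for 6 h minus 3 h 6 lay above (27.4%) and none below (5.48%), and for 6 h minus 1 h 2 lay above (15.1%) and 2 below (15.6%). The median log2 change of the 13 was 0.50 at 1 h, -0.05 at 3 h and 0.70 at 6 h, beside 0.07, -0.18 and 0.04 for all probe sets.

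The genes most like each member in pattern were found by Pearson's r of log2 signals over the 12 arrays, among 11052 genes with a probe set brighter than the median. The arrays share the 4 time groups, so any genes that follow the same course score high. For Cebpd these were S100a8 (r = 0.990), S100a9 (0.988) and the acute-phase gene Saa4 (0.984). For Cebpb they were Kbtbd8 (0.969), the immediate-early gene Ier5 (0.961) and Nfkbiz (0.959), which encodes the NF-kB cofactor I-kappa-B zeta. For Cebpa they were Cmah (0.987), the sterol sensor escort Scap (0.955) and the cholesterol carrier Stard4 (0.951).

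Foxa2 was most like Trim14 (0.963), AI661453 (0.943) and Zdhhc18 (0.938), and Foxa3 was most like the growth factor receptor Egfr (0.956), Scara5 (0.955) and A630072M18Rik (0.940). Foxa1 was most like Capn3 (0.918), Gm38402 (0.896) and the clock repressor Cry1 (0.889), and Prox1 was most like Msantd4 (0.968), Rab11fip4 (0.966) and Rpp14 (0.948). Onecut1 had the lowest of these values, with Abt1 (0.861), Rps19bp1 (0.851) and Ints2 (0.849). Among the members themselves, r was 0.85 for Cebpb and Cebpd, 0.79 for Cebpd and Foxa3, 0.77 for Cebpa and Foxa1, and -0.74 for Cebpa and Foxa3.

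Some messages of the signals known to induce Cebpb and Cebpd were higher by 1 h, when Cebpb and Cebpd were higher too. Which came first, and whether these signals acted on the 2 genes, was not tested. Of 17 measured cytokines, receptors and signal carriers, a list that also holds the feedback inhibitor Socs3, 7 were higher, Socs3 among them, and none lower at 1 h, where 1.45% of all genes were higher and 0.148% lower. At 3 h, 11 were higher and none lower (4.76% and 12.9% of all genes). The 6 h group had 13 higher and 1 lower (14.4% and 11.8%). The cytokine genes Il1b and Il1a were higher by 4.48 and 3.63 at 1 h and by less, 2.23 and 0.97, at 6 h. At 6 h the 4 genes with the largest change included Socs3 (5.11, adjusted p = 1.2e-05), the IL-1 receptor Il1r1 (4.46, adjusted p = 1.4e-05) and the oncostatin M receptor Osmr (3.77, adjusted p = 0.00017). The remaining one was Tnf, which was at the floor on all 3 control arrays and read 6.73 to 58.6 at 6 h. The gene that was lower was Nr3c1, the glucocorticoid receptor (-0.85, adjusted p = 0.0022).

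Acute-phase genes that C/EBP beta and delta are known to activate were higher at 6 h in 18 of 18 measured, with a median log2 change of 1.25 against 0.02 for all genes. At 1 h 8 were higher and at 3 h 15, and none was lower at any of the 3 times. Of all 18193 genes, 1.45% passed as higher in the 1 h group, 4.76% in the 3 h group and 14.4% in the 6 h group. This list, like the others, was chosen with earlier results of these data known. Quantile normalization left 17 of the 18 higher at 6 h. Saa3 rose by 6.71 (adjusted p = 3.4e-06), the orosomucoid gene Orm2 by 4.88 (adjusted p = 1e-06), the siderophore binder Lcn2 by 4.74 (adjusted p = 3.5e-06) and the IL-1 receptor antagonist Il1rn by 4.49 (adjusted p = 0.00055).

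Of 15 measured metabolic genes known as C/EBP alpha targets, none passed at 1 h, 1 was lower at 3 h, and 6 were lower and 1 higher at 6 h, against 11.8% of all genes lower and 14.4% higher at 6 h and 12.9% lower at 3 h. The median was -0.20 at 6 h, against 0.02 for all genes. Quantile normalization made it 8 lower and 1 higher at 6 h. The 4 largest at 6 h were G6pc, the last enzyme of glucose release (-4.70, adjusted p = 0.0065), the liver glycogen synthase Gys2 (-1.83, adjusted p = 0.00037), the iron hormone Hamp (0.89, adjusted p = 0.017) and the urea-cycle arginase Arg1 (-0.77, adjusted p = 0.0012). The albumin gene Alb (0.09, adjusted p = 0.46) and the transthyretin gene Ttr (0.11, adjusted p = 0.45) did not pass.

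Of 14 measured genes known as FOXA or HNF6 targets, 3 of which (Ttr, Tat and Apob) are also on the C/EBP alpha list, none passed at 1 h, 1 was lower at 3 h, and 4 were lower and 1 higher at 6 h. Among all genes 12.9% were lower at 3 h, and 11.8% were lower and 14.4% higher at 6 h. The median of the list at 6 h was -0.14, against 0.02 for all genes. Quantile normalization gave 6 lower and 1 higher at 6 h. Cyp7a1, whose enzyme sets the rate of bile acid formation, fell by 6.89 at 6 h (adjusted p = 0.00029), the glucose transporter Slc2a2 fell by 2.24 (adjusted p = 4.6e-05) and the sterol hydroxylase Cyp8b1 fell by 2.10 (adjusted p = 0.001). The insulin-like growth factor binder Igfbp1 rose by 2.66 (adjusted p = 0.029).

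**Figure D4:**
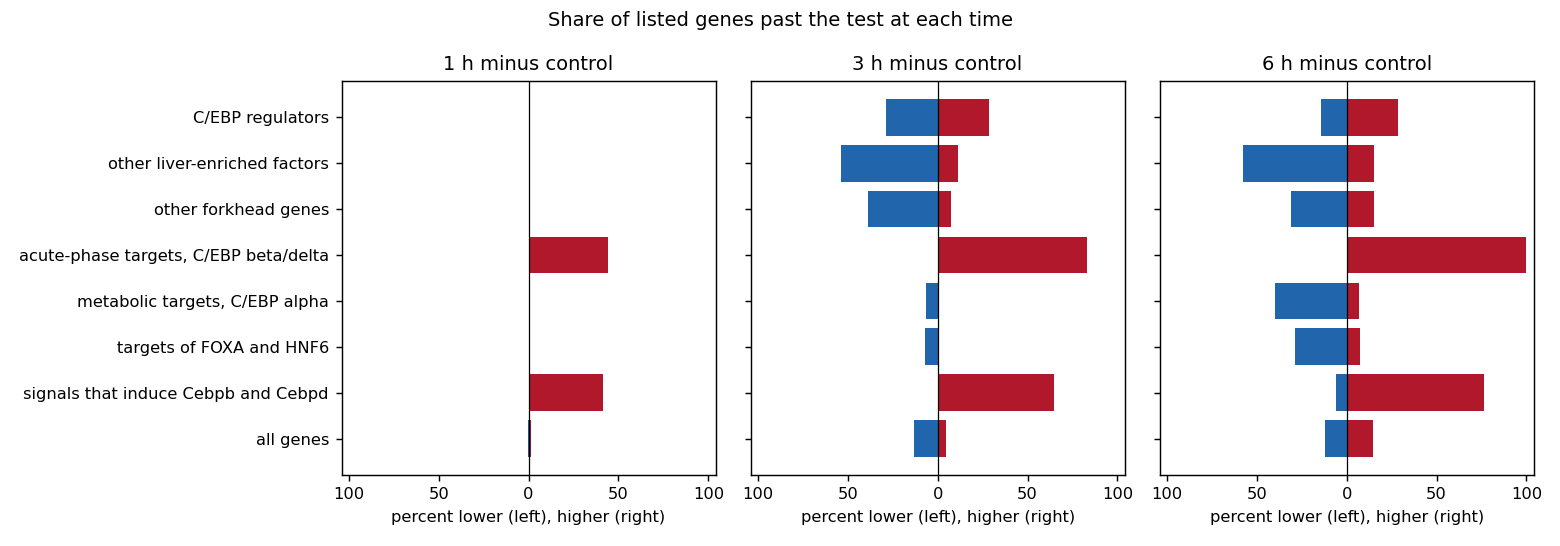
Share of the measured genes of each list that passed the test, lower (to the left) and higher (to the right), for each ConA time against the control group, with all 18193 genes at the bottom. The acute-phase list reached 18 of 18 higher at 6 h, and the list of other liver-enriched factors had 15 of 26 lower.

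Among other liver-enriched transcription factors, lower calls outnumbered higher ones at 3 h and 6 h. Of 26 measured, none passed at 1 h, while the 3 h group had 3 higher and 14 lower and the 6 h group had 4 higher and 15 lower, with medians of -0.66 and -0.82. Lower calls outnumbered higher ones among all genes at 3 h too (12.9% against 4.76%, median -0.21), whereas at 6 h they did not (11.8% against 14.4%, median 0.02). The PAR leucine-zipper genes Dbp (-3.17, adjusted p = 0.0025) and Hlf (-2.32, adjusted p = 5.1e-05), both clock outputs, the xenobiotic receptor Nr1i3 (-2.27, adjusted p = 7.1e-05) and the fatty acid receptor Ppara (-1.70, adjusted p = 0.00035) had the largest changes, with Tef, a relative of Dbp, at the same -1.70 (adjusted p = 0.00055). The 4 that were higher at 6 h were Sox9 (1.47), Gata6 (0.99), Xbp1 (0.83) and the master hepatocyte factor Hnf4a (0.73, adjusted p = 0.0017). Hnf4a read 2111 to 2547 in the control group, 2309 to 2702 at 1 h, 1702 to 1805 at 3 h and 3444 to 4293 at 6 h.

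Of 13 other forkhead genes, none passed at 1 h. The 3 h group had 1 higher and 5 lower, beside 4.76% of all genes higher and 12.9% lower. The 6 h group had 2 higher and 4 lower, beside 14.4% of all genes higher and 11.8% lower. The 5 lower at 3 h became 3 after quantile normalization and 2, with none higher, when the most variable probe set stood for each gene, which left 1 higher and 3 lower in the 6 h group. Foxn3 fell by 2.17 at 6 h (adjusted p = 8e-06), Foxo3 by 1.01 (adjusted p = 0.0024), Foxq1 by 0.78 (adjusted p = 0.046) and Foxp1 by 0.38 (adjusted p = 0.042), and Foxk2 and Foxp4 each rose by 0.71 (adjusted p = 0.01 and 0.026). The other C/EBP genes measured were Cebpg, which rose by 0.98 at 6 h (adjusted p = 0.00013), and Ddit3, the stress-induced CHOP gene, which rose by 1.71 (adjusted p = 0.0022).

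A list of 7 genes held Trib1, Trib2, Trib3 and Cop1, taken as C/EBP regulators, and Id1, Id2 and Id3, which inhibit helix-loop-helix factors. None passed at 1 h. There were 2 higher and 2 lower at 3 h, beside 4.76% of all genes higher and 12.9% lower. At 6 h there were 2 higher and 1 lower, beside 14.4% and 11.8%. Id3 was 1 of the 2 higher at both times. Quantile normalization gave 3 higher and 1 lower at 3 h, and the most variable probe sets gave 3 higher and 2 lower. Id3 rose by 1.62 at 3 h and 1.45 at 6 h (adjusted p = 0.00099 and 0.00096). Trib1, a pseudokinase that directs C/EBP alpha to the ubiquitin ligase Cop1, rose by 1.22 at 3 h and by 0.69 at 6 h (adjusted p = 0.003 and 0.028). Cop1 itself fell by 0.38 and 0.35 (adjusted p = 0.026 at both times), and Trib3 was lower at 3 h (-2.16, adjusted p = 0.0044), with a change of 0.24 at 6 h (adjusted p = 0.74).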

How the data were processed

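Total RNA of whole liver was biotin-labelled and hybridised to 12 arrays, 3 for each time. The authors deposited linear signal intensities of 45101 probe sets. The submitters' processing notes name MAS5 5.0 and the study's methods name RMA-normalized signals, and the intensities were used as deposited, without new scaling. MAS5 summarises each array by itself, and the array medians were not equal. The 20th percentile of the table (3.04) served as a floor to which lower values were raised before log2, and 64 control probe sets were dropped. Gene symbols came from the platform annotation and were updated through the Entrez ID. A listed gene was represented by its brightest probe set.

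The 4 groups were fitted together with limma 3.58.1 in R 4.3.3, with moderated variances whose prior had no trend on intensity. The threshold was an adjusted p of 0.05 (Benjamini-Hochberg). A moderated F test over the 3 contrasts against control took the place of the methods' random variance model. The arrays' number limits the precision. The fit was tested on simulated data. Replicate numbers were not taken to pair arrays: residuals of the 18 pairs with the same number correlated from -0.011 to 0.038, and those of the 36 other pairs from -0.036 to 0.029.

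The members and the gene lists were chosen with earlier results of these data known. Every probe set of the 8 genes was named, with the 4 largest changes past the threshold at 6 h in each list reported. Some, not all, of the genes behind counts of 5 or fewer were named too, and the 3 genes most like each member. Il1a, Il1b, Alb, Ttr, Tef and Pdpn were named after their values were seen, and marker lists of other cell types that no result is set beside are not reported. The alternatives were quantile normalization, median centring, a pseudocount of 1 with no floor, the probe sets brighter than the median, an intensity trend, only the groups compared, a replicate block, leaving out each array and unadjusted p, and for listed genes the most variable probe set. Motifs were searched in RefSeq promoter sequences of build GRCm38.p6.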

Additional observations from a re-analysis of the deposited data

Results flagged for a closer look

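Changes against control that differed between times were found for Cebpa, Cebpb, Foxa2 and Prox1, on any of their probe sets and between any ConA times. No share of all genes was counted on these terms. The test was the direct limma contrast of the later with the earlier ConA group (adjusted p under 0.05). The control arrays cancel in each of these contrasts. Of the 13 probe sets, 5 were lower and none higher for 3 h minus 1 h, and 6 were higher and none lower for 6 h minus 3 h. For 6 h minus 1 h, 1 was higher and 1 lower. Of all probe sets, 12.8% were lower and 2.09% higher for 3 h minus 1 h. For 6 h minus 3 h 14.3% were higher and 2.42% lower, and for 6 h minus 1 h 8.02% and 9.08%. After quantile normalization or median centring, 0 of the 13 probe sets were lower for 3 h minus 1 h.

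For Cebpa, the change at 6 h was lower than that at 1 h by -0.70. For Cebpb, the change at 3 h differed from that at 1 h by -0.59 on 1418901_at and -0.64 on 1427844_a_at, and the change at 6 h differed from that at 3 h by 0.61 and 0.85 on the same probe sets. For Foxa2, the change at 6 h was above that at 3 h by 0.92. For Prox1, the change at 3 h was below that at 1 h by -0.62 on 1437894_at, -0.70 on 1457432_at and -0.77 on 1421336_at, and the change at 6 h was above that at 3 h by 1.12, 1.08 and 0.91. On 1437894_at the change at 6 h was also above that at 1 h by 0.50. No group had more than 3 arrays, so no array was tested as standing apart from its group.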

How the results depend on the processing

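Of 78 changes tested, 30 passed as deposited. None of these turned direction under any alternative run, 22 lost their call under at least 1, of which 12 lost it after leaving out an array, and 8 kept it throughout. With 3 arrays a group, changes near the threshold depend on single arrays, and the dimmer 3 h arrays make contrasts with 3 h depend on the scaling. Beyond that construction the cause of these moves was not tested.

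Counts below are probe sets of the 13, with no share of all probe sets under the same alternative to set beside them. An unadjusted p gave 6 higher and 1 lower at 1 h, 4 lower at 3 h, 2 lower at 6 h, 1 lower for 6 h minus 3 h, and 2 higher and 2 lower for 6 h minus 1 h. A fit of only the groups compared gave 1 higher at 1 h, 1 higher at 3 h and 3 lower for 3 h minus 1 h, and among single calls it also lost Cebpd 1456605_at and Prox1 1457432_at at 6 h (adjusted p = 0.067 and 0.075). An intensity trend gave 3 lower at 3 h and 2 lower at 6 h. The probe sets brighter than the median gave 3 lower at 3 h, 2 lower at 6 h, 1 lower for 6 h minus 3 h, and 2 higher and 2 lower for 6 h minus 1 h. Median centring gave 5 higher and 2 lower at 6 h, 0 lower for 3 h minus 1 h, 1 higher and 2 lower for 6 h minus 3 h, and 0 higher for 6 h minus 1 h. Quantile normalization gave 2 lower at 6 h, 0 lower for 3 h minus 1 h and 1 lower for 6 h minus 3 h. A pseudocount of 1 gave 1 lower for 3 h minus 1 h and 0 higher for 6 h minus 1 h. The replicate block gave 3 lower for 3 h minus 1 h and 0 higher for 6 h minus 1 h.

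Leaving out each array gave 3 higher and 0 lower at 1 h, 1 to 4 higher and 1 to 2 lower at 3 h, and 7 to 8 higher and 1 to 2 lower at 6 h. It gave 0 higher and 1 to 4 lower for 3 h minus 1 h, 4 to 6 higher and 0 lower for 6 h minus 3 h, 0 to 2 higher and 0 to 1 lower for 6 h minus 1 h, and 9 to 10 by the F test. The lowest count of 1 higher at 3 h came without control replicate 2.

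Changes that turned direction, none of them past the threshold, were these. Under median centring and quantile normalization, Foxa1 was 0.18 and 0.12 at 3 h and 0.35 and 0.31 for 3 h minus 1 h, Foxa3 was -0.26 and -0.07 for 6 h minus 3 h, and Prox1 1457432_at was 0.04 and 0.03 at 3 h. Under median centring Cebpd 1423233_at was -0.05 for 6 h minus 3 h. Leaving out an array turned Cebpb 1418901_at for 6 h minus 1 h (-0.04, -0.03, -0.01 and -0.0003, range -0.04 to 0.13), Cebpd 1456605_at for 6 h minus 1 h (-0.17 and -0.03), and Foxa1 at 1 h (0.01 and 0.11, range -0.12 to 0.11), at 3 h (range -0.21 to 0.12) and for 3 h minus 1 h (0.06, 0.06 and 0.15, range -0.18 to 0.15). It also turned Onecut1 1421447_at at 3 h (-0.09 and -0.02, range -0.09 to 0.78), Onecut1 1450252_at at 3 h (0.08 and 0.38, range -0.83 to 0.38), at 6 h (range -0.09 to 0.71) and for 6 h minus 3 h (range -0.08 to 1.14), and Prox1 1421336_at for 6 h minus 1 h (range -0.01 to 0.24).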
